A study of Mus musculus with 16 samples.

Results

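The surfactant and alveolar type 2 genes examined here were Sftpc, Sftpa1, Sftpb, Sftpd, Abca3, Lamp3, Napsa, Lpcat1, Slc34a2 and Chil1, chosen by symbol. Earlier results of these data were known when they were chosen. All 10 were found among the 16380 genes listed for whole lung RNA, and each had at least 87 reads in every library. Lungs of 4 groups of C57BL/6 mice were sequenced, with 4 libraries per group: IL-31RA knockout mice given bleomycin (KO-Bleo) or saline (KO-Sal), and littermate wildtype mice given bleomycin (WT-Bleo) or saline (WT-Sal). The knockout allele lacks exons 4 to 6 of Il31ra in every cell, and the mice were 10 to 18 weeks old, of both sexes (which library is from which sex is not stated). Bleomycin, a DNA-breaking drug used to induce lung fibrosis, was given intradermally at 6 U/kg, 5 times per week over 4 weeks, control mice received saline by the same route, and lungs were taken on day 28. No source says that the 4 libraries of a group are 4 different mice, so p-values measure the spread between libraries, which may be technical. Levels are RPKM, that is, reads corrected for the length of the gene and the depth of the library, and libraries are listed in replicate order, 13 to 16 for KO-Bleo, 5 to 8 for WT-Bleo, 9 to 12 for KO-Sal and 1 to 4 for WT-Sal.

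Alveolar type 2 cells make pulmonary surfactant, the film of phospholipid and protein that lowers surface tension in the air spaces, and they also renew the flat type 1 cells after injury. Surfactant is packed in lamellar bodies before secretion. Its small hydrophobic proteins SP-B and SP-C spread the lipid film, and its collectins SP-A and SP-D bind microbes and help macrophages to clear them. Loss of type 2 cells, or of their surfactant programme, is a known feature of bleomycin injury and of fibrotic lungs.

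Recovered reads per library ranged between 1234598 and 21810789 (KO-Bleo), 604136 and 32153938 (WT-Bleo), 15538908 and 17740914 (KO-Sal) and 7790596 and 23481767 (WT-Sal). Replicates 15 (KO-Bleo) and 6 (WT-Bleo) were the shallow libraries, and correlated with the rest of their groups at a median r of 0.981 and 0.97, where all others reached 0.99 or more. Il31ra had 2 to 9 (KO-Bleo), 0 to 13 (WT-Bleo), 2 to 3 (KO-Sal) and 5 to 17 (WT-Sal) reads per library, and reads outside the deleted exons cannot check the genotype. The deposited values carry 10 significant digits in both knockout groups and 15 in both wildtype groups, so any difference in how these tables were made cannot be told apart from genotype.

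The members were among the most abundant transcripts of these lungs. By mean RPKM over the 16 libraries Sftpc ranked 2 of 16380 genes, Sftpa1 12, Sftpb 15, Sftpd 38, Slc34a2 54, Chil1 64, Lamp3 178, Napsa 221, Lpcat1 453 and Abca3 833. Together the 10 genes took between 2.18 and 2.37% of the reads in KO-Bleo, between 1.5 and 1.69% in WT-Bleo, between 2.33 and 2.77% in KO-Sal and between 2.6 and 2.9% in WT-Sal. The share was lowest in all 4 WT-Bleo libraries, without overlap with any other group. In whole lung RNA, fewer type 2 cells and less of these transcripts per cell cannot be told apart.

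Most members lie far apart in the genome. Sftpa1 (chromosome 14, 41131788 to 41136373, GRCm38) and Sftpd (chromosome 14, 41172212 to 41185198) are neighbours in the collectin cluster, 35.8 kb apart and on opposite strands, whereas Sftpc lies elsewhere on chromosome 14 (70520941 to 70524081). Lpcat1 (chromosome 13, 73467231 to 73516420) shares a chromosome with Il31ra (112521931 to 112580732), 39.0 Mb from it. The promoters of 7 members were found in the RefSeq table of GRCm38.p6, those of Sftpc, Sftpd and Napsa not being in it. The 250 bases before the gene start are shown for the 5 members in which any of the letters searched were found. Capitals mark these letters, searched on both strands: CTCAAG, a core recognised by NKX2-1 in surfactant genes, TGTTTNC for FOXA factors, TTGCNNAA for C/EBP factors, and the TATA box TATAAA.
Sftpa1: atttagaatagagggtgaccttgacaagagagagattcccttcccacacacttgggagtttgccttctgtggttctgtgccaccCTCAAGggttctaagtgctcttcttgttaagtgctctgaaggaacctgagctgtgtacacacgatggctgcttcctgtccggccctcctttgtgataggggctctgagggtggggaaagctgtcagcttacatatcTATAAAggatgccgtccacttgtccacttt
Sftpb: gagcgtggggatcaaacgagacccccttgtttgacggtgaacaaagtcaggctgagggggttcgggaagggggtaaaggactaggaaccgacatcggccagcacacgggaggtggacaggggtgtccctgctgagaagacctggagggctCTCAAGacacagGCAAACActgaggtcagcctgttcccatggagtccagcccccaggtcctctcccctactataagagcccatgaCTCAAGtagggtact
Lamp3: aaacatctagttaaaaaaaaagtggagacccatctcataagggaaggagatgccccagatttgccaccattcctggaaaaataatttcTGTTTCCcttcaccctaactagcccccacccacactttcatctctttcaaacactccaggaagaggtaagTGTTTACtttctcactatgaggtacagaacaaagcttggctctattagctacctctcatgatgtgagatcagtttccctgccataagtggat
Slc34a2: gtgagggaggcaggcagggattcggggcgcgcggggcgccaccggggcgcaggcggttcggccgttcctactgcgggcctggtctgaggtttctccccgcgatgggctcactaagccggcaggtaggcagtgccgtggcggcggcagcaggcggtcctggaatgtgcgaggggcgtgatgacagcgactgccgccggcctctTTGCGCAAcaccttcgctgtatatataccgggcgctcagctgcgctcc
Chil1: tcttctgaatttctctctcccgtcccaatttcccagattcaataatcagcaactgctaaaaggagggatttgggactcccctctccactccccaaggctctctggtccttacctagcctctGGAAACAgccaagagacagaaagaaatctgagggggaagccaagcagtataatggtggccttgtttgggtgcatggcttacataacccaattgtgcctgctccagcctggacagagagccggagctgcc

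The NKX2-1 letters stood at -166 to -161 from the start of Sftpa1, and at -100 to -95 and -15 to -10 of Sftpb. FOXA letters stood at -88 to -82 of Sftpb and -129 to -123 of Chil1, on the opposite strand in both, and at -162 to -156 and -92 to -86 of Lamp3. The C/EBP letters of Slc34a2 read the same on both strands, at -48 to -41, and the TATA box of Sftpa1 stood at -30 to -25. Among the 32851 promoters of the table, windows of the same length held the NKX2-1 letters in 13.3%, FOXA in 17.8%, C/EBP in 9.56% and TATAAA in 12.4%, so none of these letters is rare. The windows of Lpcat1 and Abca3 held none of them and are not shown, and that of Abca3 does not end at the listed gene start. A match describes letters only, not a bound site.

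To assess the change with bleomycin, the proteins of the surfactant film were examined first. Sftpc, which encodes SP-C, read 14797, 14294, 13356 and 13327 RPKM in KO-Bleo, 9823, 9347, 10075 and 10407 RPKM in WT-Bleo, 15669, 17191, 17121 and 14295 RPKM in KO-Sal, and 17512, 16025, 19466 and 16147 RPKM in WT-Sal. WT-Bleo lay below every other library, and KO-Bleo reached KO-Sal through replicate 13 alone, which exceeded replicate 12 of KO-Sal. Sftpb, which encodes SP-B, read 1181, 1093, 1023 and 1066 RPKM in KO-Bleo, 959.3, 825.8, 820.1 and 862.4 RPKM in WT-Bleo, 1166, 1296, 1089 and 1073 RPKM in KO-Sal, and 1096, 1063, 1172 and 1160 RPKM in WT-Sal. Its pattern was shallower, with the WT-Bleo libraries again lowest and the other 3 groups overlapping.

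The collectins of the same film did not move together. Sftpa1, which encodes SP-A, read 1096, 1253, 1101 and 1085 RPKM in KO-Bleo, 775.2, 648.2, 745.9 and 819 RPKM in WT-Bleo, 1470, 1753, 1427 and 1448 RPKM in KO-Sal, and 1613, 1739, 1685 and 1613 RPKM in WT-Sal. The groups of Sftpa1 formed 3 levels without overlap, lowest in WT-Bleo, then KO-Bleo, then both saline groups, which met. Sftpd, which encodes SP-D, read 895.1, 744.7, 665.6 and 795.9 RPKM in KO-Bleo, 694.8, 579, 609.9 and 636 RPKM in WT-Bleo, 547.8, 629.1, 547 and 488.7 RPKM in KO-Sal, and 578.7, 651.6, 661.6 and 601.7 RPKM in WT-Sal. Its KO-Bleo libraries were high, and WT-Bleo, KO-Sal and WT-Sal overlapped.

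**Figure D1:**
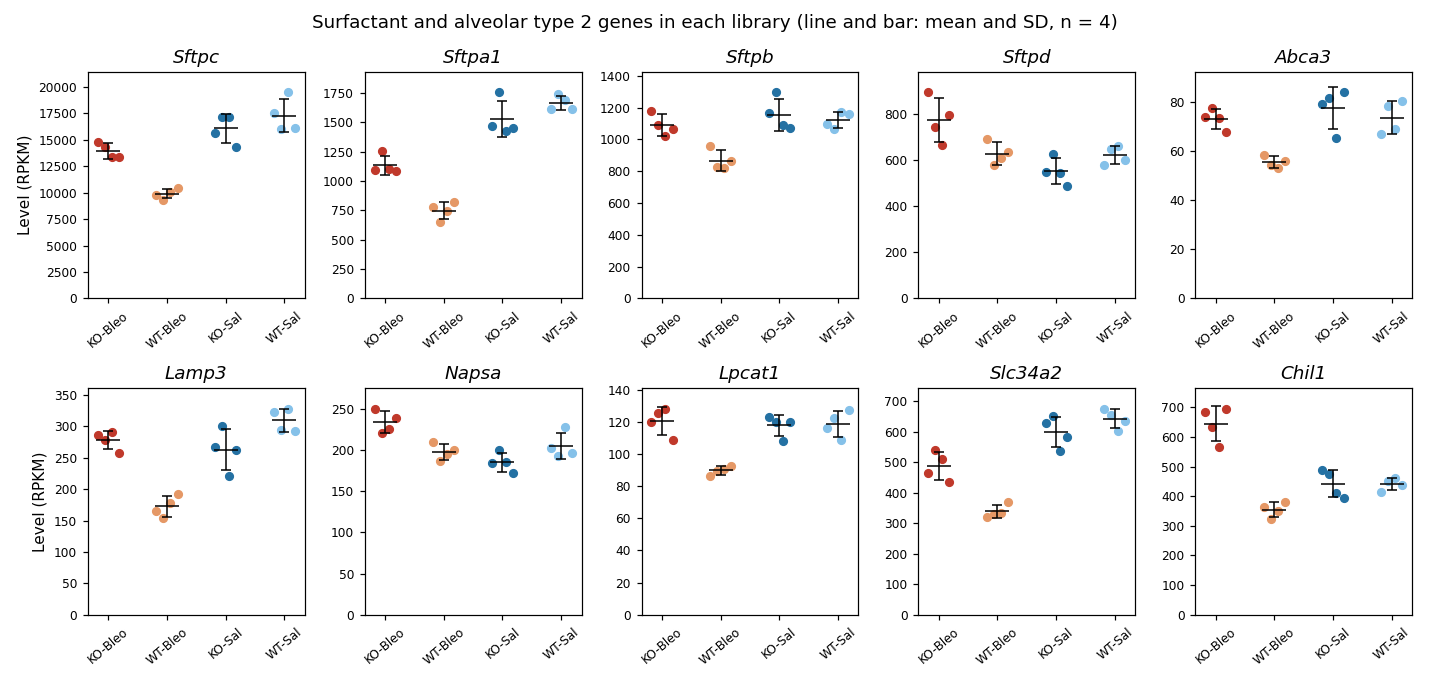
RPKM of each of the 10 genes (y axis, from 0) in the 16 libraries by group (x axis), with points for libraries and black lines and bars for the mean and SD of 4 libraries. Sftpc, Sftpa1, Lamp3 and Slc34a2 were lowest in WT-Bleo, where Sftpa1 averaged 747.1 RPKM against 1663 RPKM in WT-Sal, whereas Chil1 was highest in KO-Bleo, at a mean of 644.9 RPKM.

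The genes of lamellar bodies and lipid supply were taken next. Lamp3, a glycoprotein of the lamellar body membrane, read 286.8, 278.4, 291.4 and 257.8 RPKM in KO-Bleo, 165.7, 154.4, 177.3 and 192.6 RPKM in WT-Bleo, 267.6, 301.2, 220.5 and 262.9 RPKM in KO-Sal, and 322.3, 294.3, 328.2 and 293.4 RPKM in WT-Sal. All WT-Bleo libraries were below all others, and KO-Bleo lay within the range of the saline groups together. Abca3, the transporter that loads phospholipid into lamellar bodies, averaged 73.2 ± 4.1 RPKM in KO-Bleo, 55.5 ± 2.36 RPKM in WT-Bleo, 77.5 ± 8.38 RPKM in KO-Sal and 73.6 ± 6.83 RPKM in WT-Sal (SD, n = 4 each). Lpcat1, which makes the dipalmitoyl lipid of surfactant, averaged 120.6 ± 8.57 RPKM in KO-Bleo, 89.8 ± 2.67 RPKM in WT-Bleo, 117.8 ± 6.45 RPKM in KO-Sal and 118.6 ± 7.95 RPKM in WT-Sal (SD, n = 4 each). For both genes the WT-Bleo libraries did not reach the other groups, whose ranges overlapped.

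Slc34a2, the phosphate transporter of the type 2 cell surface, read 465.6, 539.2, 510 and 433.1 RPKM in KO-Bleo, 321.6, 330.6, 331.7 and 370.7 RPKM in WT-Bleo, 626.8, 649.4, 536.6 and 581.3 RPKM in KO-Sal, and 674.7, 654.9, 600.6 and 635.8 RPKM in WT-Sal. KO-Bleo lay between WT-Bleo and the saline groups, touching KO-Sal through 1 library of each. Napsa, the protease that trims pro-SP-B, read 250.2, 220.4, 226.1 and 239.1 RPKM in KO-Bleo, 209.7, 186.8, 195.1 and 200 RPKM in WT-Bleo, 184.7, 200.1, 184.9 and 171.6 RPKM in KO-Sal, and 202, 192.3, 228.3 and 196.8 RPKM in WT-Sal. Napsa thus resembled Sftpd more than Sftpc, high in KO-Bleo and not low in WT-Bleo. Chil1, a secreted chitinase-like protein made by mouse type 2 cells and macrophages, read 685.5, 634.1, 564.7 and 695.2 RPKM in KO-Bleo, 364.9, 322.3, 351.2 and 379.8 RPKM in WT-Bleo, 488.8, 475.1, 411.8 and 394.2 RPKM in KO-Sal, and 414.5, 450.8, 460.1 and 436.3 RPKM in WT-Sal. KO-Bleo was above and WT-Bleo below all saline libraries.

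In wildtype lungs, bleomycin lowered 8 of the 10 genes (limma, Benjamini-Hochberg adjusted p under 0.05 over all listed genes) and raised none, while 12.3% of all genes were called lower and 18.6% higher (60.1% of calls were higher, and 49.9% by median-of-ratios scaling, under which the 8 members kept their calls). Sftpa1 fell most, 2.23-fold (log2 fold change -1.16, SE 0.08, adjusted p = 6.2e-06), followed by Slc34a2 at -0.92 (adjusted p = 8.4e-06), Lamp3 at -0.84 (adjusted p = 4.2e-05) and Sftpc at -0.80 (adjusted p = 6.1e-05). Abca3 (-0.40), Lpcat1 (-0.40), Sftpb (-0.37) and Chil1 (-0.31) fell less, with adjusted p between 0.000855 and 0.00493. Sftpd (0.01, adjusted p = 0.905, 95% interval -0.15 to 0.17) and Napsa (-0.05, adjusted p = 0.634, 95% interval -0.20 to 0.10) did not pass. The same 8 genes had WT-Bleo libraries below all WT-Sal libraries, as did 14.4% of all genes. The median log2 fold change of the 10 genes was -0.40, and that of all genes 0.01. The 8 calls held in each of 18 alternatives with an adjusted p, and 4 genes passed at an unadjusted p under 0.05 with at least 1.5-fold.

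In knockout lungs the same treatment lowered 2 members and raised 3, while 10.4% of all genes were called lower and 13.2% higher. Sftpa1 (-0.42, SE 0.09, adjusted p = 0.00647) and Slc34a2 (-0.30, SE 0.09, adjusted p = 0.0363) fell. Chil1 rose 1.46-fold (0.54, SE 0.10, adjusted p = 0.00287), Sftpd 1.4-fold (0.48, SE 0.10, adjusted p = 0.00854) and Napsa 1.26-fold (0.33, SE 0.07, adjusted p = 0.00626). Sftpc (-0.20, adjusted p = 0.134), Sftpb (-0.08), Abca3 (-0.08), Lamp3 (0.09) and Lpcat1 (0.03) did not pass, and the 95% interval of Sftpc ran from -0.40 to 0.00. KO-Bleo and KO-Sal libraries did not overlap for Chil1, Sftpd and Napsa, all higher, and for Sftpa1, lower, against 15.3% of all genes higher and 12.8% lower. The call of Slc34a2 was lost in 5 of 18 alternatives (adjusted p 0.00943 to 0.1), and none of the 5 genes passed at an unadjusted p under 0.05 with at least 1.5-fold.

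**Figure D2:**
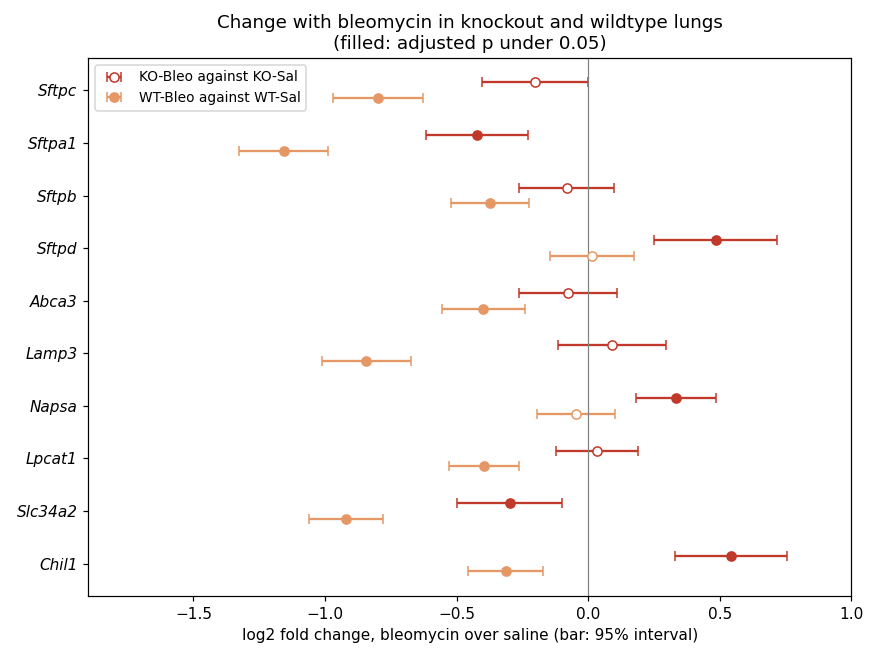
Log2 fold change of bleomycin over saline (x axis) with its 95% interval for each of the 10 genes (y axis), in knockout lungs (red, upper point) and wildtype lungs (orange, lower point), filled where the adjusted p was under 0.05. For every gene the knockout point lies to the right of the wildtype point, from 0.29 (Sftpb) to 0.93 (Lamp3) further on the log2 scale.

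Whether the change with bleomycin differed by genotype was tested by the interaction over all 16 libraries, that is, the change in knockout lungs minus that in wildtype lungs. It was positive for all 10 genes and called for 5, among 23 genes called positive in all (0.14%), with 0.0794% of all genes called negative. Lamp3 differed by 0.93 (SE 0.12, adjusted p = 0.0118), Chil1 by 0.86 (SE 0.12, adjusted p = 0.0118), Sftpa1 by 0.73 (SE 0.11, adjusted p = 0.024), Slc34a2 by 0.62 (SE 0.11, adjusted p = 0.0329) and Sftpc by 0.60 (SE 0.11, adjusted p = 0.0369). Lpcat1 (0.43, adjusted p = 0.0645), Sftpd (0.47, adjusted p = 0.222), Napsa (0.38, adjusted p = 0.143), Abca3 (0.32, adjusted p = 0.335) and Sftpb (0.29, adjusted p = 0.329) did not pass. Lamp3 and Chil1 were called in all 25 alternatives, Sftpa1 in 19, Slc34a2 in 15 and Sftpc in 10. Leaving out 1 library left 2 to 6 members called: 2 without replicate 3, 4, 5, 11, 14 or 15, and 3 without replicate 1, 2 or 9. Without both shallow libraries 3 members were called.

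After bleomycin, 7 members were higher in KO-Bleo lungs than in WT-Bleo lungs, of 20 genes called higher among all (0.122%), and none was lower (0.0916% of all genes). These were Chil1 (1.81-fold, log2 fold change 0.86, adjusted p = 0.0184), Lamp3 (1.61-fold, 0.69, adjusted p = 0.0184), Sftpa1 (1.52-fold, 0.60, adjusted p = 0.025), Slc34a2 (1.43-fold, 0.52, adjusted p = 0.0454), Sftpc (1.41-fold, 0.49, adjusted p = 0.0184), Lpcat1 (1.34-fold, 0.42, adjusted p = 0.0396) and Abca3 (1.31-fold, 0.39, adjusted p = 0.0445). Sftpb (0.33, adjusted p = 0.101), Sftpd (0.29, adjusted p = 0.287) and Napsa (0.24, adjusted p = 0.165) did not pass. All KO-Bleo libraries exceeded all WT-Bleo libraries for 9 members, Sftpd being the exception, and for 3.72% of all genes. This comparison shares its libraries with those above. The members were chosen with earlier results of these data known, so their count beside the share of all genes is not independent support. The authors had already listed Chil1, Lamp3 and Sftpa1 as higher in knockout mice with bleomycin. The calls depended on single libraries while the direction of all 10 members stayed the same in all 18 alternatives: no member and no other gene was called without replicate 5, 7, 13 or 14, 1 member without replicate 15, 2 without replicate 8, 4 without replicate 6, 7 without replicate 16, and 3 without both shallow libraries. Over these omissions the log2 fold change of Chil1 ranged from 0.81 to 0.92 and that of Sftpc from 0.46 to 0.52. Although limma-voom on the recovered reads called all 10 members, it called many more genes in all than the main fit, as counted in the last section.

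Under saline, no member was called between KO-Sal and WT-Sal, where 8 genes of all were called (0.0488%), and by limma-voom none was called either. At an unadjusted p under 0.05 (16.2% of all genes) the one member was Lamp3, at -0.24 (adjusted p = 0.231). Libraries of KO-Sal and WT-Sal overlapped for all 10 members, while 6.24% of all genes were higher and 3.42% lower without overlap. The largest difference allowed by the 95% intervals was -0.45, for Lamp3, and the intervals of Chil1 (-0.18 to 0.19) and Lpcat1 (-0.16 to 0.14) were narrow around 0.

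The members formed more than one pattern over the 16 libraries, which share groups and treatment. On the log2 scale Sftpc, Sftpa1, Slc34a2 and Lamp3 were correlated with each other at Pearson's r of 0.878 to 0.975, and Abca3 with Lpcat1 at 0.926. Sftpd and Napsa were correlated at 0.92, while Sftpd with its neighbour Sftpa1 gave -0.192 and Napsa with Sftpc 0.084. Chil1 stood between, at 0.739 with Napsa, 0.707 with Sftpd and 0.404 with Sftpc.

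Ratios within a library show the same separation without reference to its depth. The level of Sftpd over that of Sftpa1 was 0.687 ± 0.107 in KO-Bleo, 0.846 ± 0.0589 in WT-Bleo, 0.363 ± 0.0197 in KO-Sal and 0.375 ± 0.0138 in WT-Sal (SD, n = 4 each). Napsa over Sftpc was 0.0168 ± 0.00104 in KO-Bleo, 0.02 ± 0.000971 in WT-Bleo, 0.0116 ± 0.000528 in KO-Sal and 0.0119 ± 0.000289 in WT-Sal. Both ratios were higher in every bleomycin library than in every saline library. Chil1 over Sftpc was 0.0463 ± 0.00425 in KO-Bleo, 0.0357 ± 0.00128 in WT-Bleo, 0.0276 ± 0.00292 in KO-Sal and 0.0256 ± 0.00231 in WT-Sal, without overlap between the bleomycin groups. Chil1 over Sftpb set KO-Bleo alone apart, at 0.591 ± 0.0427, against 0.41 ± 0.029 in WT-Bleo, 0.383 ± 0.0248 in KO-Sal and 0.393 ± 0.0222 in WT-Sal. These ratios were chosen after the values were seen and carry no test.

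**Figure D3:**
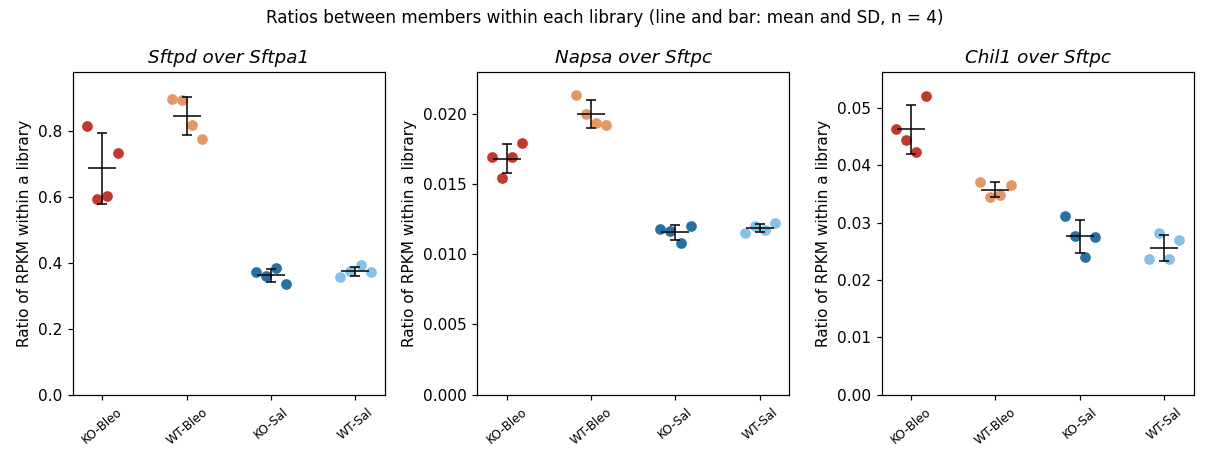
Ratio of RPKM between 2 genes in the same library (y axis, from 0) by group (x axis), for Sftpd over Sftpa1, Napsa over Sftpc and Chil1 over Sftpc, with points for libraries and black lines and bars for the mean and SD of 4 libraries. The first ratio averaged 0.687 in KO-Bleo and 0.846 in WT-Bleo, against 0.363 in KO-Sal and 0.375 in WT-Sal, and Chil1 over Sftpc was highest in KO-Bleo.

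Other genes typical of type 2 cells were counted in the same fits. Like the members, they were chosen with earlier results of these data known, so their counts are a description and not independent support. The authors had already listed Hc, Bex2, S100g and Egfl6 as higher in knockout mice with bleomycin. Of 20 such genes outside the members, 15 fell and 4 rose in WT-Bleo against WT-Sal (median log2 fold change -0.68), and 10 fell and 4 rose in KO-Bleo against KO-Sal (median -0.26). Among all genes, 12.3% were called lower and 18.6% higher in wildtype lungs, and 10.4% and 13.2% in knockout lungs. The largest falls in wildtype lungs were those of Bex2 (-3.08), Acoxl (-2.21), a peroxisomal oxidase-like gene, and Hc (-1.54), which encodes complement C5. Between the bleomycin groups, 3 of the 20 were higher in KO-Bleo, as were 0.122% of all genes: Hc at 166.2 ± 19.6 RPKM against 82.2 ± 12 RPKM (log2 fold change 1.01, adjusted p = 0.0184), Mlc1 at 29 ± 0.636 RPKM against 20.1 ± 0.819 RPKM (0.51, adjusted p = 0.0184) and Dram1 at 139.3 ± 3.89 RPKM against 104.1 ± 4.35 RPKM (0.42, adjusted p = 0.0184; SD, n = 4 each). The interaction was called positive for 8, and for 0.14% of all genes. The 8 were Acoxl (1.12), Hc (0.98), Egfl6 (0.82), S100g (0.81), Ppp1r14c (0.76), Mlc1 (0.59), Lgi3 (0.58) and Dram1 (0.50). Of these, Dram1 was called in all 25 alternatives, Hc and Lgi3 in 16, Egfl6 and Mlc1 in 15, Ppp1r14c in 13, S100g in 11, and Acoxl in 10 of 24. Between the bleomycin groups Hc and Mlc1 were called in 13 of 18 alternatives and Dram1 in 12. Ctsh, a cathepsin that like napsin A processes surfactant proproteins, rose with bleomycin in both genotypes, to 314.4 ± 46.1 RPKM in KO-Bleo, against 164 ± 19.2 RPKM in KO-Sal, and to 404.1 ± 36.9 RPKM in WT-Bleo, against 194 ± 18.9 RPKM in WT-Sal (SD, n = 4 each). Ctsh, Ppp1r14c, Lgi3, Egfl6 and Dram1 were named in this list after their values were seen.

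Among the 13308 genes whose log2 level averaged 1 or more, those with the pattern most like the mean of the members over the 16 libraries were Car8 (Pearson's r 0.923), Egfl6 (0.91), Cyp4v3 (0.905), Dram1 (0.887), Cxcl15 (0.884), Adk (0.88), Idi1 (0.877), Itih4 (0.863), Prmt8 (0.86) and Sgpp2 (0.859). These genes were chosen for this pattern, so the values are a description. The genes with the most opposite pattern were Sema3f (-0.869), Angptl7 (-0.865), Jam2 (-0.863), Dlgap4 (-0.858) and Capn5 (-0.852).

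Transcription factors and receptors that act on surfactant genes were examined next. Of 15 such regulators, 6 fell and 2 rose in wildtype lungs and 7 fell and 1 rose in knockout lungs. Among all genes, 12.3% fell and 18.6% rose in wildtype lungs, and 10.4% and 13.2% in knockout lungs. No regulator was called between KO-Bleo and WT-Bleo (0.122% of all genes higher, 0.0916% lower) or in the interaction (0.14% positive, 0.0794% negative). All KO-Bleo libraries exceeded all WT-Bleo libraries for 4 of the 15 (3.72% of all genes), and none lay wholly below. The median difference of the 15 was 0.01. Nkx2-1, the master factor of lung epithelium, fell by 0.22 on the log2 scale in KO-Bleo against KO-Sal (adjusted p = 0.0218) and by 0.24 in WT-Bleo against WT-Sal (adjusted p = 0.0352). Fgfr2, the receptor that maintains type 2 cells, fell by 0.65 in knockout lungs and by 0.89 in wildtype lungs (adjusted p = 0.000228 and 5.5e-05). Foxa1, which opens chromatin at lung epithelial genes, fell in knockout (-0.60) and wildtype lungs (-0.41) as well. Sox9 (0.45) and Stat3 (0.24) rose in wildtype lungs. Stat3 rose alike in knockout lungs (0.24, adjusted p = 0.00896), where Sox9 did not pass (0.07). Nkx2-1 was named here after its values were seen.

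Genes for making and moving surfactant lipid were called in both directions. Of all genes, 13.2% were called higher and 10.4% lower in knockout lungs, and 18.6% and 12.3% in wildtype lungs. Several of the counts below lie near these shares. Of 19 genes of phospholipid and fatty acid synthesis, 4 rose and 4 fell in knockout lungs, and 5 rose and 8 fell in wildtype lungs, where the lipid droplet protein Plin2 (0.73) and the desaturase Scd1 (0.67) rose and the citrate lyase Acly (-0.47) and the CDP-diacylglycerol synthase Cds2 (-0.38) fell. Their summed level was 1854 to 2256 RPKM (KO-Bleo), 1621 to 1807 RPKM (WT-Bleo), 1324 to 2308 RPKM (KO-Sal) and 1330 to 1439 RPKM (WT-Sal), widest in KO-Sal. In that group the fatty acid synthase Fasn spanned 46.6 to 147.4 RPKM, against 41.3 to 47.8 RPKM in WT-Sal, and the elongase Elovl6 4.99 to 32.4 RPKM, against 2.41 to 3.56 RPKM. Neither was called between the saline groups, both were named after their values were seen, and the part of this spread in the knockout counts was not tested. Of 18 genes of lamellar body traffic, secretion and recycling, 4 rose and 2 fell in knockout lungs, and 4 rose and 6 fell in wildtype lungs, with Adgrf5, a receptor that restrains the surfactant pool, at -0.68 and the ATP receptor P2ry2 at 0.71. Of 11 genes of surfactant clearance by macrophages, 8 rose in knockout lungs, and 7 rose and 2 fell in wildtype lungs, among them the cholesterol exporter Abca1 (1.04) and the mannose receptor Mrc1 (0.73). No gene of these 3 lists was called between KO-Bleo and WT-Bleo, where 0.122% of all genes were called higher and 0.0916% lower. All KO-Bleo libraries nevertheless exceeded all WT-Bleo libraries for 10 of the 19 synthesis genes (median difference 0.14), and for 3.72% of all genes. None of the 19 lay wholly below. For the traffic list 0 genes lay wholly above and 1 below, and for the clearance list 2 above and 1 below.

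Markers of other epithelial states were counted in the same fits, where 13.2% of all genes were called higher and 10.4% lower in knockout lungs, and 18.6% and 12.3% in wildtype lungs. Of 13 genes of the Krt8-high transitional epithelium, cells between type 2 and type 1, 7 rose in knockout lungs and 11 in wildtype lungs, with Cldn4 at 2.50 and 3.06 and Sprr1a at 3.08 and 3.07. Of 9 genes that injured type 2 cells switch on, 8 rose in knockout lungs and 9 in wildtype lungs, with Retnla at 4.10 and 3.79 and Lcn2 at 2.47 and 2.15. Whole lung RNA does not show which cells these transcripts came from. Of 14 type 1 markers, 2 rose and 3 fell in knockout lungs, and 5 rose and 3 fell in wildtype lungs, with Pdpn at 0.63 and 0.76 and Hopx at -0.55 and -0.67. Of 12 pan-epithelial genes, 2 rose in knockout lungs, and 5 rose and 1 fell in wildtype lungs, while of 11 club and goblet cell genes 4 rose and 4 fell in knockout lungs, and 4 rose and 2 fell in wildtype lungs. No gene of these 5 lists was called between KO-Bleo and WT-Bleo (0.122% of all genes higher, 0.0916% lower) or in the interaction (0.14% positive, 0.0794% negative). Of the 13 transitional genes, 1 had a positive difference between KO-Bleo and WT-Bleo (median -0.26) and 1 a positive interaction (median -0.31). Their mean log2 level overlapped, at 4.52 to 4.84 in KO-Bleo and 4.82 to 5.10 in WT-Bleo.

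**Figure D4:**
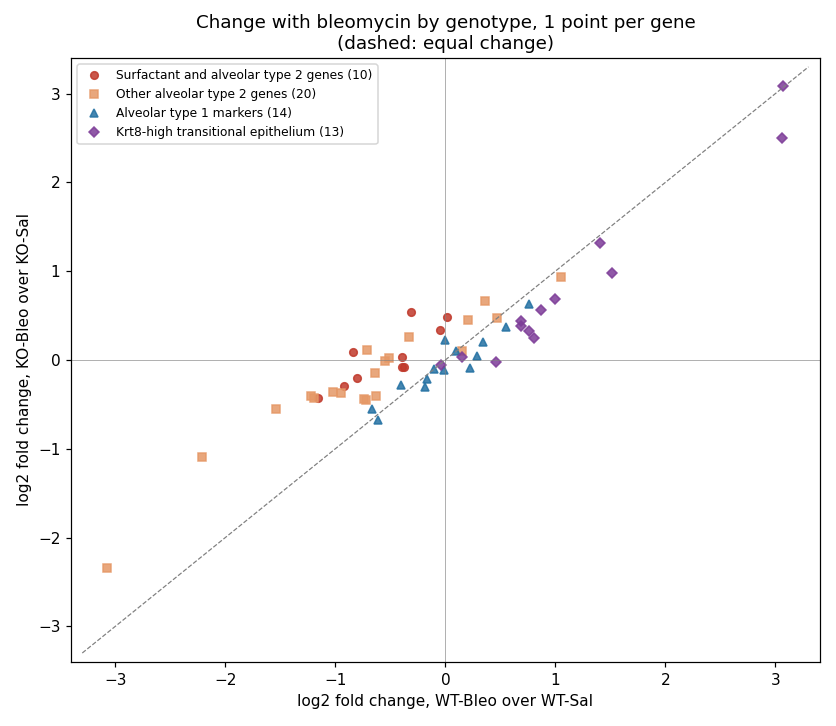
Log2 fold change of KO-Bleo over KO-Sal (y axis) against that of WT-Bleo over WT-Sal (x axis), 1 point per gene, for the 10 members, 20 other type 2 genes, 14 type 1 markers and 13 transitional genes, with the dashed line at equal change. All 10 members lie above the line, with Chil1 at 0.54 on the y axis and -0.31 on the x axis, whereas the transitional genes reach 3.08 and 3.07.

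Genes of non-epithelial cells moved with bleomycin beside the members. Of all genes, 13.2% were called higher and 10.4% lower in knockout lungs, and 18.6% and 12.3% in wildtype lungs. Of 10 monocyte-derived macrophage markers, 7 rose in knockout lungs and 8 in wildtype lungs, and their summed level was 1380 to 2109 RPKM in KO-Bleo, 1731 to 1947 RPKM in WT-Bleo, 523.4 to 994.3 RPKM in KO-Sal and 559.5 to 580.4 RPKM in WT-Sal. Of 12 alveolar macrophage markers, 3 rose and 5 fell in knockout lungs, and 3 rose and 6 fell in wildtype lungs, with a summed level of 604.3 to 1037 RPKM in KO-Bleo, 611.7 to 693.1 RPKM in WT-Bleo, 560.4 to 732.7 RPKM in KO-Sal and 728.7 to 871.2 RPKM in WT-Sal. Among them Fabp1 was at 0 reads in at least 1 library of both bleomycin groups and Krt79 in at least 1 of WT-Bleo. Of 10 endothelial markers, 7 fell in knockout lungs, and 8 fell and 1 rose in wildtype lungs, with a summed level of 854.9 to 944.3 RPKM in KO-Bleo, 928.8 to 964.3 RPKM in WT-Bleo, 1015 to 1281 RPKM in KO-Sal and 1209 to 1379 RPKM in WT-Sal. The part of these cells in the change of the members was not tested. No marker of the 3 lists was called between KO-Bleo and WT-Bleo (0.122% of all genes higher, 0.0916% lower), and their summed levels overlapped. The mean log2 level of the 12 alveolar macrophage markers did not overlap, at 4.19 to 4.42 for the KO-Bleo libraries and 3.58 to 4.10 for those of WT-Bleo. It thus stood higher in KO-Bleo, as the members did, with a positive difference for 10 of the 12 (median 0.24) and a positive interaction for 11 (median 0.31).

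Lamp3 also marks mature dendritic cells and Chil1 belongs to a family made by macrophages. Of 6 other mature dendritic cell markers, 4 rose in knockout lungs (13.2% of all genes), and 3 rose and 1 fell in wildtype lungs (18.6% and 12.3%). None was called between KO-Bleo and WT-Bleo, where 3 of the 6 differences were positive (median -0.004, with Fscn1 at -0.50, adjusted p = 0.218). Of all genes, 0.122% were called higher there and 0.0916% lower, so the absence of calls in lists this short says little. The summed level of these 6 markers was 64.1 to 74.5 RPKM in KO-Bleo and 69.1 to 84.1 RPKM in WT-Bleo. The part of dendritic cells in the level of Lamp3 was not tested. Among the chitinase genes, Chil4 rose in both genotypes (4.74 in knockout and 2.23 in wildtype lungs), Chia1 fell in both (-1.80 and -1.85), and Chil3 did not pass in either (0.49 and -0.20). None of these 3 was called in KO-Bleo against WT-Bleo, where Chil1 was, but all differed in the same direction as Chil1. Chil4 averaged 43.9 ± 39.9 RPKM in KO-Bleo and 7.47 ± 5.49 RPKM in WT-Bleo (SD, n = 4 each), with overlapping libraries (log2 fold change 2.33, SE 0.73, adjusted p = 0.275). Chil3 (0.27) and Chia1 (0.25) differed less. The interaction was 2.51 for Chil4, 0.69 for Chil3 and 0.04 for Chia1, none of them called (0.14% of all genes positive, 0.0794% negative). Of the 6 other lung collectins and lysozymes, Lyz2 rose and Mbl1 fell in knockout lungs (13.2% and 10.4% of all genes). Lyz1 and Mbl1 fell in wildtype lungs (12.3%). None of the 6 was called between KO-Bleo and WT-Bleo (0.122% higher, 0.0916% lower), where Sftpa1 was and Sftpd was not. Lyz1 and Lyz2 are near-identical copies, as are members of the chitinase family in part, and reads shared by them may be split unevenly.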

How the data were processed

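Whole lung RNA (RNeasy kit, HiSeq-1000 sequencing) of 16 libraries was analysed. The authors deposited normalized RPKM values per gene; the unit, named in no source used here, was read from the values. Tools in the submitters' processing notes were TopHat, DESeq, bcl2fastq and CASAVA 1.8, and the build was mm10. Whole reads were recovered for all 16380 genes (tolerance 0.02 read) and gave depth, a filter and limma-voom.

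Each comparison was fitted by limma 3.58.1 (R 4.3.3, trend and robust) on log2(RPKM + 1) of its own 8 libraries, the interaction on all 16, two-sided, with Benjamini-Hochberg adjustment over all genes. Fold changes are first over second group on that scale, which understates those of low genes. Genes were called at adjusted p under 0.05. The fit was also run on simulated reads for WT-Bleo against WT-Sal alone, which does not check the other comparisons. Members and 16 lists were chosen with earlier results of these data known. Named genes were the members, up to 4 genes per list by p with bleomycin in wildtype lungs and 2 by p between bleomycin groups, the 10 genes most like and the 5 most opposite to the mean of the members, and Il31ra. Alternatives were pseudocounts, filters, scalings, weights, shared spread, thresholds and left-out libraries. Positions and promoters are from RefSeq on GRCm38, and strands of the genes from GENCODE.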

Additional observations from a re-analysis of the deposited data

Results flagged for a closer look

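Sftpa1 had 1 library apart from the other 3 in both knockout groups: replicate 14 of KO-Bleo at 1253 RPKM (gap over range 0.906) and replicate 10 of KO-Sal at 1753 RPKM (gap over range 0.867), past Dixon's critical value of 0.829 for 4 samples. These were 2 of 40 groups tested, and chance gives about 1 in 20.

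The change with bleomycin differed between knockout and wildtype lungs (limma interaction, knockout minus wildtype, log2 scale) for 5 members: Lamp3 0.93 (adjusted p = 0.0118), Chil1 0.86 (adjusted p = 0.0118), Sftpa1 0.73 (adjusted p = 0.024), Slc34a2 0.62 (adjusted p = 0.0329) and Sftpc 0.60 (adjusted p = 0.0369). Of 25 alternatives, these calls held in all for Lamp3 and Chil1, 19 for Sftpa1, 15 for Slc34a2 and 10 for Sftpc. Over all genes, the interaction was called positive for 0.14% and negative for 0.0794%. The interaction also passed the threshold for 8 of the 20 other type 2 genes: Acoxl 1.12 (adjusted p = 0.0397), Hc 0.98 (adjusted p = 0.0329), Egfl6 0.82 (adjusted p = 0.0329), S100g 0.81 (adjusted p = 0.0397), Ppp1r14c 0.76 (adjusted p = 0.0368), Mlc1 0.59 (adjusted p = 0.0329), Lgi3 0.58 (adjusted p = 0.0329) and Dram1 0.50 (adjusted p = 0.0134). Of these 8, Dram1 alone was called in all 25 alternatives, with an adjusted p of up to 0.0479, while Hc and Lgi3 were called in 16, Egfl6 and Mlc1 in 15, Ppp1r14c in 13, S100g in 11 (adjusted p up to 0.109) and Acoxl in 10 of 24 (adjusted p up to 0.105).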

How the results depend on the processing

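Members called numbered 8 in WT-Bleo against WT-Sal (4 at an unadjusted p under 0.05 with at least 1.5-fold), 5 in KO-Bleo against KO-Sal (0 at those thresholds), 7 in KO-Bleo against WT-Bleo (3 at those thresholds, 3 without both shallow libraries, 0 to 7 without 1 library) and 5 in the interaction (8 with library quality weights, 3 without both shallow libraries, 2 to 6 without 1 library). Signs turned only for members that were not called. Sftpd in WT-Bleo against WT-Sal gave -0.036 by median-of-ratios scaling, -0.0029 without the 10 most abundant and haemoglobin genes in the scaling, and -0.034 to 0.053 without 1 library. Napsa in the same comparison gave -0.077 to 0.0055 without 1 library. Lpcat1 in KO-Bleo against KO-Sal gave -0.0050 with quality weights and -0.0066 to 0.081 without 1 library. In KO-Sal against WT-Sal, without 1 library, Sftpb gave -0.017 to 0.073, Lpcat1 -0.049 to 0.031 and Chil1 -0.048 to 0.055, and Chil1 gave -0.030 by median-of-ratios scaling. The cause was not tested.

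Genes called among all numbered 35 in KO-Bleo against WT-Bleo, against 582 by limma-voom, 406 with quality weights, 269 with a shared spread, 149 with at least 10 reads in every library, 95 without both shallow libraries, 67 with a value of at least 1 in 4 libraries, 207 at the unadjusted thresholds, and 0 to 47 without 1 library. The interaction called 36, against 136 with weights, 81 by limma-voom, 55 with at least 10 reads, 338 at the unadjusted thresholds, and 3 to 60 without 1 library. KO-Sal against WT-Sal called 8, against 176 with weights, 117 by limma-voom, 69 with a shared spread, 40 and 30 with the filters, 141 at the unadjusted thresholds, and 3 to 722 without 1 library (722 without replicate 12). At the unadjusted thresholds 1821 genes were called in WT-Bleo against WT-Sal (main 5066) and 1220 in KO-Bleo against KO-Sal (main 3864). Median-of-ratios scaling moved the higher share of calls in WT-Bleo against WT-Sal from 60.1% to 49.9%. No paired analysis was possible because no source says which libraries of different groups belong together. With 87 reads as the lowest member value, counting noise was largest in the 2 shallow libraries.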
